A study of Arabidopsis thaliana with 8 samples.

Results

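A set of 121 Arabidopsis genes carried abundant 24-nt small RNAs (sRNAs) in endosperm that received functional NRPD1 from the mother, and between 0.0403% and 12.1% of that level in endosperm that received it from the father. The genes were chosen by these values themselves. Levels are given as CPM, the reads of a size class at a gene scaled to 1000000 reads of that class at annotated genes of the same library. A gene was taken as a member when its mean 24-nt level over the pat nrpd1+/- libraries was at least 100 CPM and at least 8 times its mean level over the mat nrpd1+/- libraries. Of 33433 annotated genes, 1018 reached the minimum and 121 of those (11.9%) passed the ratio. The other 897 are called here the other abundant genes. The difference in 24-nt reads between mat and pat nrpd1+/- is therefore what made the set and is described without a test.

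The libraries come from endosperm, the nourishing tissue of the seed, dissected 7 days after pollination from crosses of a Ler mother with a Col-0 father. In mat nrpd1+/- (3 libraries) the mother was homozygous for the nrpd1a-4 T-DNA allele and the father was wild type. In pat nrpd1+/- (2 libraries, numbered 2 and 3) the mother was wild type and the father homozygous mutant, and in nrpd1-/- (3 libraries) both parents were mutant. The allele arose in Col-0 and was introgressed into Ler, so every cross was Ler by Col-0. The study reports that Col-0 segments remain in the Ler nrpd1-/- plants, which were the mothers in mat nrpd1+/- and nrpd1-/- but not in pat nrpd1+/-. Effects of these segments and of maternal genotype cannot be told apart, and whether members lie in them was not tested. Each library pooled endosperm of many seeds, with different parent plants per replicate, and the third pat nrpd1+/- library had been dropped by the study for its low read number. Endosperm carries 2 maternal genomes and 1 paternal genome, so the parent that gives functional NRPD1 and the number of functional copies cannot be told apart, nor can reads made in the endosperm be told apart from any reads of maternal seed tissue, which was mutant in mat nrpd1+/- and nrpd1-/- and wild type in pat nrpd1+/-. In bulk samples, fewer cells of a type and less RNA per cell cannot be told apart either.

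RNA polymerase IV, whose largest subunit is NRPD1, transcribes short RNAs that RDR2 makes double-stranded and DCL3 cuts into 24-nt sRNAs. These guide DNA methylation by way of ARGONAUTE4-type proteins and RNA polymerase V. Siren loci are the few places in the genome that give a very large part of the 24-nt sRNAs of ovules and endosperm, and they are known to be of maternal origin. AT3G05025, AT1G13760 and AT2G16575, which mark the set, were all members, and because the files hold no list of siren loci the members are called siren-like.

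The sequences of a few members are shown because they bear on how related the set is and on how well reads can be placed. AT3G28674 (chr3:10747818-10747994, minus strand) and AT5G04853 (chr5:1410527-1410703, minus strand) encode uncharacterized proteins on different chromosomes and are alike over 177 bases with an identity of 93.8%. AT1G17780 (chr1:6124967-6125166, plus strand) and the marker AT2G16575 (chr2:7185046-7185245, plus strand) are alike over 200 bases with an identity of 93.5%. AT3G08370 (chr3:20030910-20031192, minus strand), a long non-coding RNA gene of 283 bases, had the highest 24-nt level per length and is given whole. All are from the NCBI RefSeq genome TAIR10.1, whose nuclear chromosomes are those of TAIR10, and are written 5′ to 3′ on the gene's own strand, with capitals at bases that differ between the genes of a pair.
AT3G28674: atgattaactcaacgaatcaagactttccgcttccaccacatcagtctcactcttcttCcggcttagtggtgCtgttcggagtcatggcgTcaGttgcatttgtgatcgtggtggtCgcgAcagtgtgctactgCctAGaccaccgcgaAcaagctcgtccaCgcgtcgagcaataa
AT5G04853: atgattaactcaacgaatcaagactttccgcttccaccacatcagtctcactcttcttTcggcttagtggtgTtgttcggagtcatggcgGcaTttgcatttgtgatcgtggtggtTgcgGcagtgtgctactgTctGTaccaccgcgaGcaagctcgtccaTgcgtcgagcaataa
AT1G17780: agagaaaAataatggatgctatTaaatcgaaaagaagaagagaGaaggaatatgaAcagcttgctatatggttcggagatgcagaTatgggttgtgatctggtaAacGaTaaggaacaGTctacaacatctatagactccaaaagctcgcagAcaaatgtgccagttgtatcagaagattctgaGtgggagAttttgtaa
AT2G16575: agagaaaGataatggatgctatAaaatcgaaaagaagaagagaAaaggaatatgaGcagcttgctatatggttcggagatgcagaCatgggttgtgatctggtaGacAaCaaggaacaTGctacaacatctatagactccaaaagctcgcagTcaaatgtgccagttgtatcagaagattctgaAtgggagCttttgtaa
AT3G08370: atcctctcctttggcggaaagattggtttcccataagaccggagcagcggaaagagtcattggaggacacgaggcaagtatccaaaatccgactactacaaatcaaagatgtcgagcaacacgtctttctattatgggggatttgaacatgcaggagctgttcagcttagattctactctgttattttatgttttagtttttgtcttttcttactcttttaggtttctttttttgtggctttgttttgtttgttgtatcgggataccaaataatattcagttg
The first pair differs at 11 bases and the second at 13. A 24-nt read that covers such a base matches only 1 gene of a pair without mismatch, and a read between such bases matches both. The alignment allowed 2 mismatches and kept the best match. It used a Col-0 and a Ler version of the genome, while the bases compared here are those of Col-0 only.

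By annotation 95 members were protein-coding, 15 were long non-coding RNA genes, 9 were transcribed pseudogenes and 2 were tRNA-Tyr genes. Protein-coding genes made up 78.5% of members, 71.8% of the other abundant genes and 82.8% of all annotated genes. Transcribed pseudogenes made up 7.44% of members against 16.4% of the other abundant genes and 2.79% of all genes. Members lay on all 5 chromosomes, with 29 on chromosome 1, 24 on 2, 26 on 3, 20 on 4 and 22 on 5. In what follows a gene's level is the level of sRNA reads at the gene, not of its mRNA.

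The libraries held between 261425 and 3236278 genic 24-nt reads, with the deepest in pat nrpd1+/- replicate 2 and the shallowest in nrpd1-/- replicate 3. In pat nrpd1+/- replicates 2 and 3 the 121 members took 43.1% and 33.2% of all genic 24-nt reads. In mat nrpd1+/- they took 0.535%, 0.517% and 0.498%, and in nrpd1-/- replicates 1 to 3 they took 4.36%, 2.12% and 0.324%. The 3 mat nrpd1+/- libraries lay close together, while the nrpd1-/- libraries were spread over more than an order of magnitude and lay on both sides of them. Because the members filled so much of the pat nrpd1+/- libraries, the CPM of all other genes there was lowered. Tests therefore used counts with scaling factors, under which the median gene of 7766 tested differed by a log2 of only -0.05 between mat and pat nrpd1+/-. A fitted log2 value thus differs from that of the CPM. Against genic reads alone, the factors moved the median gene by -0.89 for mat against pat nrpd1+/- at 24 nt and by -1.30 to -0.69 at the other sizes. For nrpd1-/- they moved it by 2.40 against mat and 1.81 against pat nrpd1+/- at 24 nt, and by -0.66 to 0.55 at 22 and 23 nt.

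In pat nrpd1+/- the members' mean levels ran from 103 to 25734 CPM with a median of 1149, and 65 members reached 1000 CPM. In mat nrpd1+/- the level was a median of 1.30% of the pat nrpd1+/- level, from 0.0403% to 12.1%. The pat nrpd1+/- level exceeded the mat nrpd1+/- level at least 100 times at 55 members and at least 1000 times at 10, while at 12 members it did so by less than 16 times. In mat nrpd1+/- replicates 1 to 3, 1, 7 and 6 members had no 24-nt read at all. Every mat nrpd1+/- library was below every pat nrpd1+/- library at all 121 members, which the rule all but fixes; among all genes tested that held for 4.07%, and 5.27% were called lower.

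**Figure D1:**
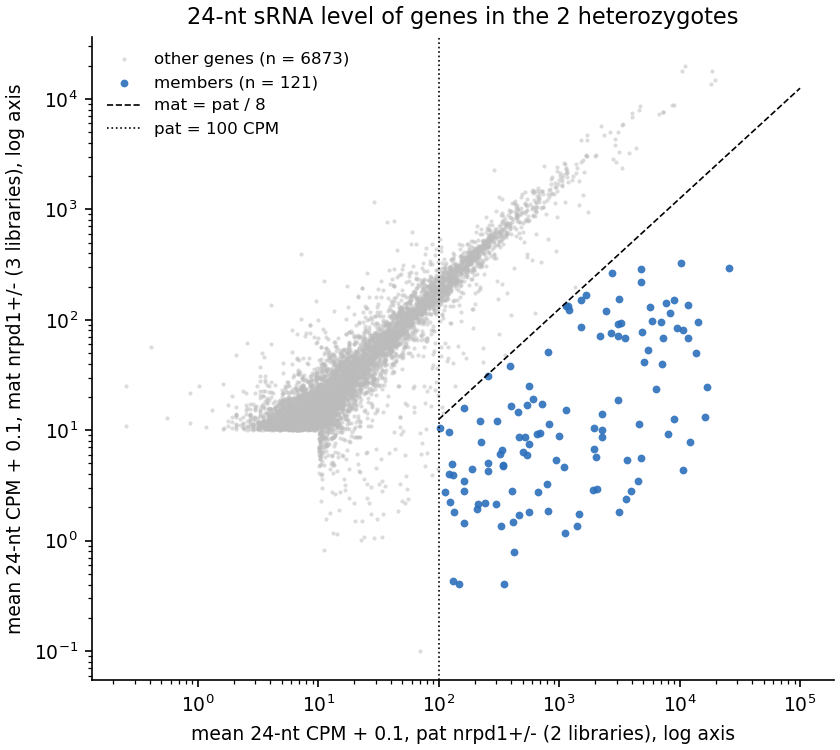
Each point is a gene, with its mean 24-nt level in pat nrpd1+/- (2 libraries) on the horizontal axis and in mat nrpd1+/- (3 libraries) on the vertical axis, both in CPM plus 0.1 on log axes. The 121 members lie right of the dotted line at 100 CPM and below the dashed line where mat is pat divided by 8.

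The gene nearest the 100 CPM minimum on the inside was AT1G63340, a flavin-containing monooxygenase gene at 103 CPM, followed by AT1G72590 at 113 and AT4G24610 at 121. Just outside lay AT1G18130 at 99.0 CPM, AT3G28530 at 88.3 and AT5G35605 at 80.1. At the ratio limit, mat nrpd1+/- stood at 12.1% of pat nrpd1+/- at AT5G39920, 11.7% at AT5G36297 and 11.1% at AT2G10556. The nearest genes beyond it were AT1G61685 with 13.0%, AT5G36903 with 13.4% and AT2G06960 with 14.5%. The limits thus cut through a continuous range of values and do not mark a gap.

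AT4G29654, which encodes a protein kinase superfamily protein, had the highest 24-nt level. Its reads stood at 27029 and 24439 CPM in pat nrpd1+/-, at 322, 295 and 274 CPM in mat nrpd1+/- and at 2689, 1271 and 180 CPM in nrpd1-/-. AT1G49260, a gene for a protein like mechanosensitive ion channels, had 18053 and 15928 CPM in pat nrpd1+/- but 32.3, 22.1 and 19.7 CPM in mat nrpd1+/-. At AT3G15960, whose product is annotated as binding mismatched DNA and ATP, the pat nrpd1+/- levels were 18718 and 13678 CPM and the mat nrpd1+/- levels 12.9, 11.1 and 15.1 CPM. The mat nrpd1+/- libraries differed little among themselves at these 3 genes, but the fraction that was left differed by gene, with 1.15% of pat nrpd1+/- at AT4G29654, 0.146% at AT1G49260 and 0.0804% at AT3G15960.

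The marker AT3G05025, a long non-coding RNA gene of 302 bases, had the lowest fraction left of all members. It had 12114 and 9206 CPM in pat nrpd1+/-, and 7.39, 2.01 and 3.47 CPM in mat nrpd1+/-, which are 8, 2 and 3 reads. The marker AT1G13760, for an uncharacterized protein, had 13348 and 11122 CPM in pat nrpd1+/- against 9.24, 8.05 and 5.79 CPM in mat nrpd1+/-. The marker AT2G16575, annotated as mucin, had 3861 and 2465 CPM against 1.85, 1.01 and 2.32 CPM. AT2G16575 lies on the plus strand across AT2G16580, a member on the minus strand for a SAUR-like auxin-responsive protein with 5333 and 3712 CPM in pat nrpd1+/-. The sources used here do not say whether counting used strand, so reads of these overlapping genes may not be separable, nor those of the members AT4G24600 and AT4G24610, which also overlap on opposite strands.

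The 20 most abundant members included genes of several unrelated families. PIRL2 (AT3G26500), of the plant intracellular Ras-group-related leucine-rich repeat proteins, had 12227 and 8413 CPM in pat nrpd1+/- and kept 351, 342 and 293 CPM in mat nrpd1+/-. TPS2 (AT1G16980), for a trehalose-6-phosphate synthase, had 9980 and 6085 CPM against 11.1, 6.04 and 10.4 CPM. The pair shows that members of like abundance differed widely in what was left in mat nrpd1+/-, with 3.19% at PIRL2 and 0.114% at TPS2. The others of the 20 were AT2G16620 and AT3G23650 (protein kinase genes), AT5G22860 (a serine carboxypeptidase S28 gene), AT2G21235 (a basic-leucine zipper transcription factor gene), AT3G21170 (an F-box gene), the pseudogenes AT3G43832 and AT5G56061, the non-coding gene AT3G08370, and AT5G56070, AT3G23645, AT4G05995, AT1G47880 and AT1G22120. Per length, mean pat nrpd1+/- levels were highest at AT3G08370 (41303 CPM per kb of gene), AT3G05025 (35298), AT4G29654 (30134) and AT2G16620 (26860), against a median of 1678 over the members.

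**Figure D2:**
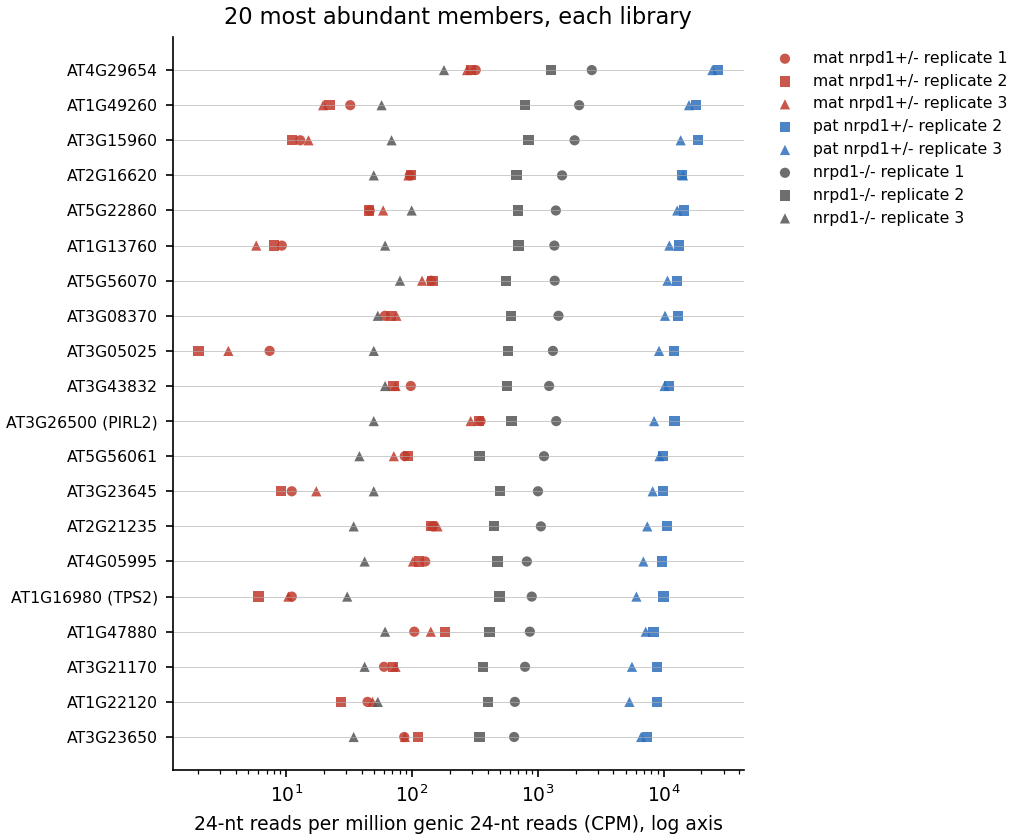
Each row is one of the 20 most abundant members and each point 1 library, with the 24-nt level in CPM on a log axis, colour for genotype and marker shape for replicate number. At AT4G29654 the pat nrpd1+/- libraries stand at 27029 and 24439 CPM, the nrpd1-/- libraries between 180 and 2689 and the mat nrpd1+/- libraries between 274 and 322.

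The set also held smaller groups of known genes, grouped here by annotation after the members were known. The 3 MADS-box genes, for a family of transcription factors, had levels in pat nrpd1+/- between 2465 and 3608 CPM. Of these AGL91 (AT3G66656) kept the least, with 4991 and 2225 CPM in pat nrpd1+/- and 3.70, 2.01 and 1.16 CPM in mat nrpd1+/-. The 3 genes for low-molecular-weight cysteine-rich proteins, which resemble defensins, had 149 to 936 CPM in pat nrpd1+/- and kept 0.207% to 0.561% in mat nrpd1+/-. The 4 genes of the plant self-incompatibility protein S1 family had 124 to 5110 CPM and kept 0.434% to 1.74%. Besides TPS2 there were 2 more trehalose-6-phosphate synthase genes, and the 3 ran from 129 to 8033 CPM.

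Regulators and biosynthetic genes were found as well. YUC10 (AT1G48910), which makes auxin, had 3822 and 2291 CPM in pat nrpd1+/- and 72.1, 75.5 and 67.2 CPM in mat nrpd1+/-. ERF11 (AT1G28370), a transcription factor of the ethylene response factor family, had 2665 and 1385 CPM against 4.62, 3.02 and 9.26 CPM. DWF4 (AT3G50660), a cytochrome P450 of brassinosteroid synthesis, had 382 and 224 CPM against 9.24, 13.1 and 13.9 CPM. NLP7 (AT4G24020), a transcription factor of the nitrate response, had 521 and 604 CPM against 20.3 to 33.2 CPM.

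The rule did not use the 21-, 22- and 23-nt reads, but these come from the same libraries, so they are not independent samples. Over the members, mean pat nrpd1+/- levels at these sizes followed those at 24 nt (rho 0.894, 0.984 and 0.991). The rule thus favours the same direction here, and a member could pass the filter on low counts through pat nrpd1+/- reads alone. Counts and log2 values of the members are therefore descriptions. In every size class the members were lower in mat nrpd1+/- than in pat nrpd1+/-. By edgeR's quasi-likelihood test with Benjamini-Hochberg adjustment over all genes, genes were called where the adjusted p was at most 0.05 and the change 2-fold or more. At 21 nt, 120 of the 121 members had enough reads to be tested and all 120 were called lower, against 10% of the 2830 genes tested, with a median log2 of -7.85 against 0.01 over all genes tested. At 22 nt, 120 of 121 were tested and all 120 called lower, against 9.52% of genes tested, with medians of -8.45 and 0.01. At 23 nt all 121 were tested and called lower, against 7.58%, with medians of -6.41 and 0.04. No member was called higher in mat nrpd1+/- in any of these 3 tests, in which 2.58%, 2.34% and 3.28% of genes were.

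At AT4G29654 the 21-nt level was 8112 and 9801 CPM in pat nrpd1+/- and 83.2, 48.4 and 55.5 CPM in mat nrpd1+/-. The log2 difference was -8.01 with an SE of 0.380. Its 22-nt level was 17588 and 21796 CPM against 181, 146 and 150 CPM, and its 23-nt level 12273 and 11930 CPM against 374, 245 and 312 CPM. The groups did not overlap in any class. The marker AT3G05025 had 5903 and 5024 CPM of 21-nt reads in pat nrpd1+/- and 1.98, 0 and 2.14 CPM in mat nrpd1+/-. At AT1G13760 the 22-nt level was 14171 and 16653 CPM against 13.0, 9.72 and 9.66 CPM.

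Over the members, the mat nrpd1+/- level as a share of the pat nrpd1+/- level had a median of 0.763% at 21 nt, 0.712% at 22 nt and 2.03% at 23 nt, against 1.30% at 24 nt. The groups did not overlap at 120 members for 21 nt, at 121 for 22 nt and at 121 for 23 nt, where 9.47%, 8.04% and 7.98% of all genes tested had mat nrpd1+/- below pat nrpd1+/- in every library. The exception at 21 nt was AT1G63340, which had few 21-nt reads, with 1.98, 8.81 and 17.1 CPM in mat nrpd1+/- and 10.4 and 11.4 CPM in pat nrpd1+/-. The limit of 8 times was met by 118 members at 21 nt, 117 at 22 nt and 110 at 23 nt. Of the 897 other abundant genes 15, 5 and 0 met it. As a group the members took 23.1% and 19.2% of genic 21-nt reads in pat nrpd1+/- against 0.130% to 0.161% in mat nrpd1+/-, and 30.1% and 31.1% of genic 22-nt reads against 0.212% to 0.321%.

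The nrpd1-/- libraries took no part in the choice of members and lack functional NRPD1 from either parent. At 24 nt every nrpd1-/- library was below every pat nrpd1+/- library at all 121 members, where 69.1% of all genes tested showed the same. The pat nrpd1+/- libraries were those chosen high, which favours this direction, so the following counts are descriptions. By edgeR 57 of the 121 were called lower against 45.7% of genes tested, with medians of -2.16 for members and -1.32 for all genes. Without a filter on low counts all 121 were called lower against 15.0% of genes, with medians of -4.33 and -1.38. Without scaling factors all 121 were called lower too, with medians of -4.08 and -3.13. The count of 57 rested on the nrpd1-/- libraries' spread, since without nrpd1-/- replicate 2 it was 11 and without replicate 1 or 3 it was 119, and without pat nrpd1+/- replicate 2 or 3 it was 101 or 118.

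The 3 nrpd1-/- libraries did not stand at the same level. As a share of the mean pat nrpd1+/- level, the median over members was 11.3% in replicate 1 (quartiles 9.63% and 13.1%), 5.39% in replicate 2 (4.60% and 7.09%) and 0.563% in replicate 3 (0.242% and 0.845%). For the other abundant genes the medians were 4.72%, 6.34% and 4.90%, so the libraries stood apart at the members and not at these genes. The order of replicates 1, 2 and 3 from high to low was found at 109 of 121 members and at 130 of 897 other abundant genes. Replicate 3 also had the fewest genic 24-nt reads, and the part of depth in this order was not tested.

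**Figure D3:**
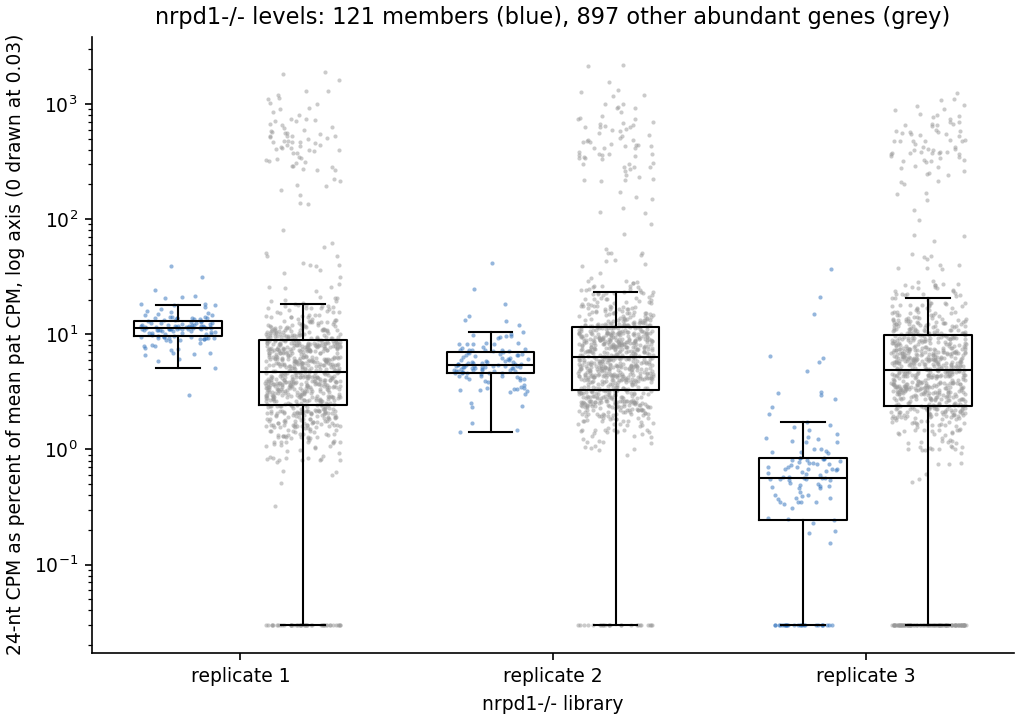
Each point is a gene, with its 24-nt CPM in 1 nrpd1-/- library as percent of its mean CPM in pat nrpd1+/- on a log axis (zeros drawn at 0.03), in blue for the 121 members and in grey for the 897 other abundant genes, with boxes for median and quartiles. Members have medians of 11.3%, 5.39% and 0.563% in replicates 1, 2 and 3, and the other abundant genes 4.72%, 6.34% and 4.90%.

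Within nrpd1-/- replicates 1 and 2 the members kept nearly the ranking they had in pat nrpd1+/-. Across the 121 members, Spearman's rho with the mean pat nrpd1+/- level was 0.977 in replicate 1, 0.945 in replicate 2 and 0.808 in replicate 3, where the pat nrpd1+/- libraries themselves had 0.981. Over the 897 other abundant genes these values were 0.471, 0.497 and 0.430, with 0.871 between the pat nrpd1+/- libraries. With mat nrpd1+/- the mean pat nrpd1+/- level had a rho of 0.583, although rho between mat nrpd1+/- libraries was 0.926 to 0.935. These are descriptions over genes of the same libraries, and the members' low counts in mat nrpd1+/- and in nrpd1-/- replicate 3 lower such values. In replicate 1, 114 of 121 members lay between 5% and 20% of their pat nrpd1+/- level, as did 336 of the 897 other abundant genes, whose shares mostly rest on fewer reads.

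Compared with mat nrpd1+/-, whose libraries were chosen low, the members stood higher in nrpd1-/- replicates 1 and 2 when taken per genic read. That choice favours this direction, so counts and log2 values of the 24-nt comparison are descriptions. Replicate 1 was above every mat nrpd1+/- library at 115 members, replicate 2 at 99 and replicate 3 at 36, while replicate 3 was below every mat nrpd1+/- library at 64. Fitted by edgeR without a filter on low counts, 100 of the 121 members were called higher and 0 lower, against 5.84% and 17.3% of all genes, with a median log2 of 2.60 over the 121 members and -1.31 over all genes. With the filter 66 members remained in the test, all called higher, against 27.2% of the genes tested, but a member could pass it through the nrpd1-/- reads alone. The median log2 was 4.42 over these 66 and -1.02 over all genes tested. Without nrpd1-/- replicate 3 the count was 105. Without scaling factors 43 of the 66 were called higher and 1 lower, with medians of 1.90 and -3.41.

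The direction of this comparison depended on what the reads were scaled to. With reads of miRNA entries as library sizes, 15 members were called higher and 20 lower of 63 tested, and the medians were -0.15 for members and -5.17 for all genes tested. With the study's totals of quality-filtered reads 36 were called higher and 1 lower of 62. Relative to other genes the members stood higher under each of these scalings, whereas their level per miRNA read had no common direction.

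Of all 24-nt reads in a library, genic or not, members held 0.0584% to 0.0625% in mat nrpd1+/- and 1.77%, 0.837% and 0.132% in nrpd1-/-. At AT4G29654, for example, nrpd1-/- replicates 1 and 2 with 2689 and 1271 CPM were above all 3 mat nrpd1+/- libraries, and replicate 3 with 180 CPM was below them. The marker AT3G05025 had 1320, 577 and 49.7 CPM in nrpd1-/-, which placed all 3 libraries above its 2.01 to 7.39 CPM in mat nrpd1+/-. AT1G13760 had 1356, 702 and 61.2 CPM and AT2G16575 had 305, 160 and 7.65 CPM in nrpd1-/-, also above every mat nrpd1+/- library.

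A MADS-box gene, AT4G36590, departed from the others. Its 24-nt level was 870, 1154 and 1018 CPM in nrpd1-/-, 3446 and 2081 CPM in pat nrpd1+/- and 269, 292 and 242 CPM in mat nrpd1+/-. The mean in nrpd1-/- was 36.7% of pat nrpd1+/-, the highest of the members, and nrpd1-/- replicate 3 was not low. Its nrpd1-/- libraries all lay between those of mat and pat nrpd1+/-. The fitted log2 difference from pat nrpd1+/- was 0.27 with an SE of 0.611, of opposite sign to the CPM because of the scaling factors, and it is not read as a higher level. Its 22-nt reads in nrpd1-/- stood at 139, 71.0 and 16.0 CPM, in the replicate order that most members had at 24 nt. Its 23-nt reads stood at 73.7, 123 and 113 CPM.

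After AT4G36590 the mean nrpd1-/- level was highest relative to pat nrpd1+/- at the tRNA-Tyr gene AT4G11177 (28.5%), at AT1G20030 (12.4%), at the tRNA-Tyr gene AT4G39195 (12.2%) and at AT5G28840 (12.1%), which encodes GDP-mannose 3,5-epimerase of ascorbate synthesis. AT4G11177 had 64.0, 40.1 and 34.4 CPM in nrpd1-/- against 207 and 118 CPM in pat nrpd1+/-. These CPM rest on 29, 15 and 9 reads in nrpd1-/-. No stretch of 24 bases in AT4G39195 was unique in the genome, so its reads may come from other tRNA-Tyr genes. The lowest shares were 2.74% at AT1G72590, 3.15% at AT5G45950, a GDSL lipase gene, 3.39% at LCR42 (AT3G23165), 3.72% at AT4G07295 and 3.82% at AT4G24600. AT1G72590 had only 3, 1 and 0 reads in nrpd1-/-, so its share is known only roughly.

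In the 22- and 23-nt classes nrpd1-/- was lower than pat nrpd1+/- at every member tested. The pat nrpd1+/- libraries were chosen high at 24 nt, and their levels at 22 and 23 nt followed those at 24 nt. This favours the direction, and a member could pass the filter through pat nrpd1+/- reads alone, so the counts are descriptions. At 22 nt 120 of the 121 were tested and all were called lower by edgeR, against 38.5% of the genes tested, with medians of -6.29 for members and -0.01 for all genes. At 23 nt 116 were tested and all were called lower, against 61.8% of the genes tested, with medians of -5.34 and -4.97. Of the other abundant genes tested, 421 of 503 were called lower at 22 nt and 817 of 889 at 23 nt. Their medians were -5.18 and -6.18, so a lower level in nrpd1-/- was not particular to the members. At AT4G29654 the 22-nt level was 756, 397 and 48.0 CPM in nrpd1-/- against 17588 and 21796 CPM in pat nrpd1+/-. The nrpd1-/- libraries were all far below both pat nrpd1+/- libraries, in the same order as at 24 nt.

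Against mat nrpd1+/- few members had enough 22- or 23-nt reads to be tested, and no common direction was found at 23 nt. The mat nrpd1+/- libraries were chosen low at 24 nt, and members' levels there at 22 and 23 nt followed those at 24 nt (rho 0.856 and 0.926). This favours a higher level in nrpd1-/-, and a member could pass the filter through nrpd1-/- reads alone. Members called higher are therefore descriptions. At 22 nt, 25 members were tested, 14 were called higher in nrpd1-/- and 1 lower, against 25.6% and 59.8% of the genes tested. The member called lower was the pseudogene AT5G36297, with 30.1, 16.7 and 0 CPM in nrpd1-/- and 130, 63.2 and 57.9 CPM in mat nrpd1+/- (log2 -1.70, SE 0.556, edgeR adjusted p = 0.00860). At 23 nt, 39 members were tested, 5 were called higher and 13 lower, against 23.1% and 74.1% of the genes tested, with medians of -0.18 for members and -5.77 for all genes. These counts changed with the libraries used. Without a filter on low counts 42 members were called higher and 2 lower at 22 nt, against 1.0% and 9.35% of genes, and 30 higher and 20 lower at 23 nt, against 2.42% and 20.7%. Without nrpd1-/- replicate 3 the 22-nt count of members called higher was 39, without replicate 1 it was 4, and without 1 of the mat nrpd1+/- libraries it was 27 to 29. Without nrpd1-/- replicate 1 the 23-nt count of members called lower was 21.

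The 5 members called higher in nrpd1-/- at 23 nt were AT3G15960, TPS2 (AT1G16980), AT5G22860, AT4G11177 and AT1G22120. AT3G15960 had 637, 188 and 46.9 CPM of 23-nt reads in nrpd1-/- and 4.18, 0 and 12.7 CPM in mat nrpd1+/-. The log2 difference was 5.53 with an SE of 0.872, given as a description. TPS2 had 221, 188 and 46.9 CPM against 6.26, 7.81 and 9.54 CPM, with a log2 difference of 4.05. At both genes all nrpd1-/- libraries were above all mat nrpd1+/- libraries. The differences at AT5G22860, AT4G11177 and AT1G22120 were 1.95, 1.94 and 1.76 on the log2 scale.

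The reads left in mat nrpd1+/- had another size make-up than those of pat nrpd1+/-. Of all 21- to 24-nt reads at the members, the share of 23-nt reads was 27.0%, 23.6% and 21.7% in mat nrpd1+/- and 7.74% and 7.86% in pat nrpd1+/-. The 21-nt share was 8.10%, 8.54% and 8.88% against 15.7% and 21.0%. The groups did not overlap for either class, and their order was the same when the 10 most abundant members were left out, with mean 23-nt shares of 23.7% and 7.60%. At the other abundant genes the 23-nt share was 19.6%, 17.7% and 16.0% in mat nrpd1+/- and 14.4% and 13.1% in pat nrpd1+/-, a smaller gap in the same direction. With 3 libraries against 2, an exact permutation test cannot give a p below 0.10, and none is given.

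The shares were also taken gene by gene. In pat nrpd1+/- the 23-nt share had a median of 7.64% over members and 18.3% over the other abundant genes. It was under 12% at 120 of 121 members, with AT1G63340 at 18.9% as the exception, and at 81 of 897 other abundant genes. Of the 64 members with at least 50 reads in both groups, all 64 had a higher 23-nt share in mat than in pat nrpd1+/-, with medians of 23.3% and 7.72%. So did 871 of the 897 other abundant genes, so a higher share in mat nrpd1+/- was not particular to the members. By this median over genes the members' share in mat nrpd1+/- lay near that of the other abundant genes, which was 25.6%. With reads pooled over each set the members' share was higher in every mat nrpd1+/- library, with 27.0%, 23.6% and 21.7% against 19.6%, 17.7% and 16.0%.

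**Figure D4:**
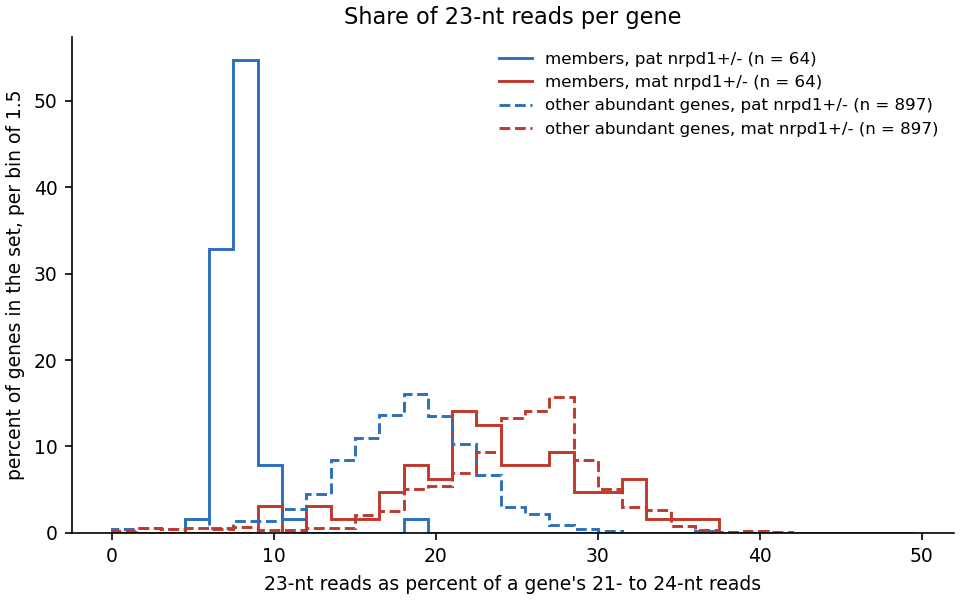
The horizontal axis is the 23-nt share of a gene's 21- to 24-nt reads in percent. The vertical axis is the percent of genes of a set per bin of 1.5. Colour gives the genotype and line style the set, solid for members and dashed for the other abundant genes. Members in pat nrpd1+/- form a narrow peak around the median of 7.72%, while members in mat nrpd1+/- (median 23.3%) overlie the range of the other abundant genes (medians 18.3% in pat and 25.6% in mat nrpd1+/-).

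In nrpd1-/- the make-up was that of pat nrpd1+/-. The 21-nt table of nrpd1-/- was not used here, so shares were taken of 22- to 24-nt reads. Over the members the 23-nt share was 9.47%, 8.95% and 10.8% in nrpd1-/-, 9.19% and 9.95% in pat nrpd1+/-, and 29.4%, 25.8% and 23.9% in mat nrpd1+/-. The 22-nt share averaged 14.5% (SD 2.71) over the 3 nrpd1-/- libraries, 15.5% (SD 3.64) over those of pat nrpd1+/- and 7.33% (SD 0.606) over the mat nrpd1+/- libraries. For both classes the nrpd1-/- libraries overlapped pat nrpd1+/- and none overlapped mat nrpd1+/-. At the other abundant genes the 23-nt share in nrpd1-/- was 16.9% to 20.2%.

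The members also differed among themselves in the 21-nt share of their pat nrpd1+/- reads. It ran from 4.44% to 46.2% with a median of 15.7%, against a median of 6.75% at the other abundant genes, and the ranking was nearly the same in both pat nrpd1+/- libraries (Spearman's rho 0.971 over 121 members). It was unrelated to gene length (rho 0.0653) and weakly related to the mean pat nrpd1+/- level (rho -0.263). Members with a larger 21-nt share had more 24-nt reads in pat nrpd1+/- replicate 2 relative to replicate 3 (rho 0.754). In nrpd1-/- the ratio of replicate 1 to replicate 2 went the other way (rho -0.525 over the 75 members with at least 50 reads). The points share libraries, depth and scaling, and these values are descriptions.

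Put into bands chosen after the values were seen, 61 members with a 21-nt share under 16% had a median ratio of pat nrpd1+/- replicate 2 to replicate 3 of 1.16 (quartiles 1.04 and 1.30). They included AT4G29654, AT1G49260, AT1G13760 and AT3G05025. The 41 members at 24% or more had a median ratio of 1.72 (quartiles 1.58 and 2.06), and included TPS2, AT3G21170, AT1G22120, AT1G80220, AGL91 and YUC10. The 19 between had a median of 1.46. For replicate 1 to replicate 2 of nrpd1-/- the medians were 2.23 in the lowest band, 2.35 in the middle and 1.51 in the highest. The middle 50% of ratios of the lowest and highest pat nrpd1+/- bands were apart, so within the set the level of one group of genes relative to another varied from library to library.

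**Figure D5:**
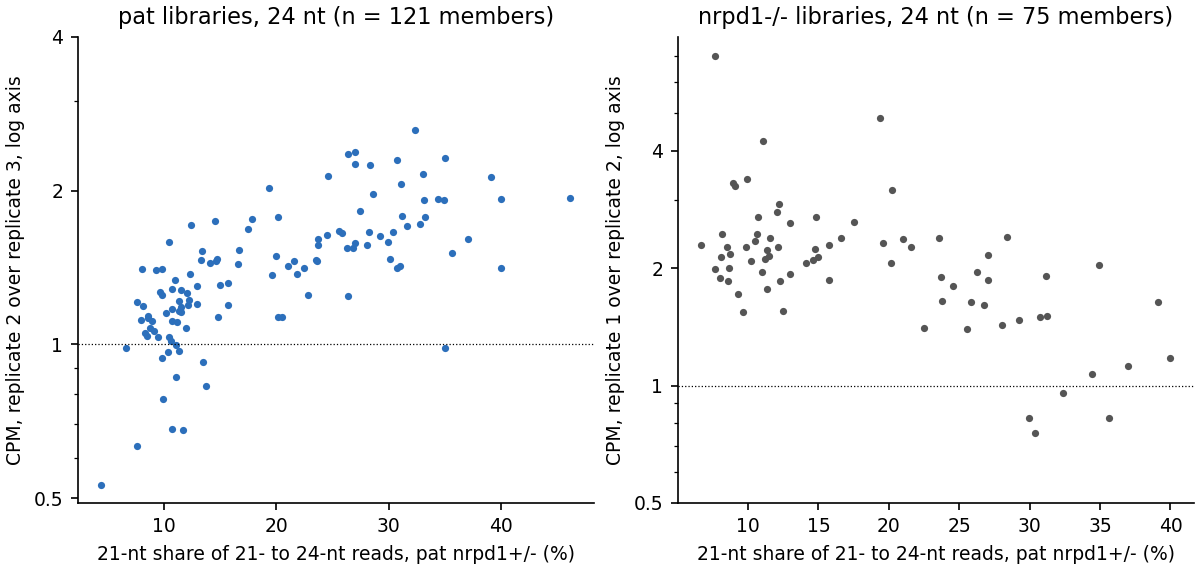
Each point is a member, with its 21-nt share of 21- to 24-nt reads in pat nrpd1+/- in percent on the horizontal axis. The vertical log axes give the 24-nt CPM ratio of pat nrpd1+/- replicate 2 to 3 for 121 members (left, rho 0.754) and of nrpd1-/- replicate 1 to 2 for 75 members (right, rho -0.525).

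Wild-type endosperm entered only through the authors' means over all libraries of a table, from which a wild-type mean was worked out on the scale of their normalized counts. By these the pat nrpd1+/- level of the members was a median of 154% of the wild-type level, from 94.3% to 248%, and was above it at 120 of 121 members, with AT4G11177 as the exception. The mat nrpd1+/- level of the members was a median of 1.28% of the wild-type level, at most 15.8% (AT4G38870, an F-box gene). The nrpd1-/- level was a median of 8.16%. Each share is on the scale of its own comparison. At AT4G29654 the worked-out wild-type mean was 28240, 32375 and 15133 in the comparisons with mat nrpd1+/-, pat nrpd1+/- and nrpd1-/-. The study states that loss of most sRNAs in nrpd1-/- leads DESeq2 to underestimate the wild-type library size, which it sought to lessen. The other abundant genes had medians of 110% in pat, 131% in mat and 4.86% in nrpd1-/-. No error can be given for the wild-type values, and the wild-type libraries were made in an earlier study, so study and genotype cannot be told apart there.

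Most members were not alike in sequence. Only 34 members (28.1%) had at least 100 aligned bases at 80% identity or more with another, non-overlapping member, in 14 groups of 2 and 2 groups of 3. Of the 18 pairs, 10 joined genes on different chromosomes, as in AT3G28674 with AT5G04853 and AT1G17780 with AT2G16575, printed above. Among the other abundant genes 402 of 878 (45.8%) had such a relative, in a larger set that offers more chances, while only 9 of them (1.03%) were related to a member.

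Related members differed in level. AT5G04853 had 4384 and 2608 CPM in pat nrpd1+/- and AT3G28674 had 1929 and 1088 CPM, while in mat nrpd1+/- they had 76.7, 64.4 and 63.7 CPM and 120, 65.4 and 74.1 CPM. TPS2 and TPS3 (AT1G17000), 80.2% identical over 3411 aligned positions, had mean pat nrpd1+/- levels of 8033 and 694 CPM. The pseudogenes AT2G05730 and AT2G05740, 99.5% identical over 364 bases, had 1500 and 919 CPM and 1862 and 1174 CPM. Reads were kept at a best alignment, so those common to both genes could be placed at either, and the levels of this last pair are uncertain.

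For most members exact matches were unique. A median of 98.4% of the 24-base stretches of a member occurred once in the Col-0 genome, and 89 members (73.6%) had at least 90% unique stretches. Matches to the Ler version used in the alignment were not counted. Only 4 (3.31%) had fewer than 50%. The other abundant genes were more repetitive, with a median of 88.9%, 47.6% of genes at 90% or more and 22.4% below 50%. The median GC content was 37.5% in members, 38.2% in the other abundant genes and 38.9% in all genes.

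Some members lay near each other. Within 10 kb of another member were 56 (46.3%), in 24 clusters, of which 20 were pairs, against 42.5% of the other abundant genes near another of theirs. The largest cluster (chr5:22700919-22710809) held AT5G56050, AT5G56060, AT5G56061, AT5G56070 and AT5G56075, with a summed mean pat nrpd1+/- level of 27623 CPM. A cluster of 4 on chromosome 3 (chr3:8501556-8511982) summed to 22164 CPM, and 1 of 4 on chromosome 4 (chr4:12840970-12844240) held 3 of the S1 family genes.

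The genes next to members mostly did not share their pattern. Of the 42 flanking genes outside the set with at least 10 CPM in pat nrpd1+/-, 6 (14.3%) met the ratio of 8 times, against 31 of 4262 other genes (0.727%). The median level in mat nrpd1+/- was 129% of pat nrpd1+/- for flanking genes and 171% for the rest. The contrast is that of the rule, so these counts are descriptions.

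None of 28 genes of RNA-directed DNA methylation and sRNA dicing was a member, and none reached 100 CPM of 24-nt reads in pat nrpd1+/-. In the 24-nt comparison of mat with pat nrpd1+/-, 16 of the 28 were tested, 1 was called higher and 1 lower, against 206 and 409 of all 7766 genes tested. Reads at NRPD1 itself were higher in mat nrpd1+/-, with 266, 260 and 280 CPM against 52.5 and 66.1 CPM in pat nrpd1+/- and 22.1, 34.7 and 38.3 CPM in nrpd1-/- (log2 of mat over pat 1.33, SE 0.199, edgeR adjusted p = 0.000365). These are sRNAs at the gene that carries the T-DNA and do not measure its mRNA, so they do not check the genotypes. Reads at NRPE1, the largest subunit of RNA polymerase V, were called lower in mat nrpd1+/- (log2 -1.26, SE 0.343, edgeR adjusted p = 0.0334) but not without scaling factors (adjusted p = 0.378), with overlapping values of 10.2, 10.1 and 15.1 CPM against 15.1 and 14.5 CPM. In the 24-nt comparison of nrpd1-/- with mat nrpd1+/-, 9 were tested and 3 (CLSY1, DCL3 and ROS1) were called higher, near the 27.2% of all genes tested. These calls came with the scaling factors. DCL3 had 6.62, 10.7 and 7.65 CPM in nrpd1-/- against 17.6, 17.1 and 23.2 CPM in mat nrpd1+/-, and without the factors DCL3 and ROS1 were called lower, by a log2 of -1.19 and -1.06, and CLSY1 was not called. Members made up 0.362% of all annotated genes, so a count of 0 members among these 28 is no result about the pathway.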

How the data were processed

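The deposited tables hold counts of sRNA reads per Araport11 gene, 1 table per size class and genotype. The authors removed PCR duplicates by random adapter bases and aligned reads with Bowtie 1.2.2, allowing 2 mismatches and keeping a best alignment per read. The reference joined Col-0 TAIR10 with a Ler version of it with Ler single-base variants, and reads placed on Ler were moved to Col-0 positions. Strand use in counting is not given in the sources used here. Pooled columns hold the authors' means of normalized counts (unit signal, counts over DESeq2 size factors); the wild-type mean was worked out from them assuming 3 wild-type libraries. The authors' fold changes and p-values were not used, nor were 371 per-library columns of other samples. Of 30 files 11 were used. The 21-nt nrpd1-/- table was left out because it partly repeats the pat nrpd1+/- table. Rows that name no gene stayed out of library sizes; the share of reads in no gene was 53.2% to 89.6%.

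Counts were tested with edgeR 4.0.16 in R 4.3.3 (filterByExpr, TMM, quasi-likelihood, Benjamini-Hochberg over all genes tested, no covariates); DESeq2 1.42.0 was an alternative. Scripts were tested on simulated data. Relatives were found with BLAST+ 2.17.0. Each p-value sets the difference between groups against the spread between these libraries, which edgeR estimates with information shared across genes. Members and gene lists were chosen with earlier results of these data known. Named genes were the 3 markers, the 20 most abundant members, the 5 with the highest and the 5 with the lowest nrpd1-/- share, those beside the limits, members called against the majority and called pathway genes; ERF11, DWF4, NLP7 and the genes of named families, related pairs, clusters and bands were picked after their values were seen.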

Additional observations from a re-analysis of the deposited data

How the results depend on the processing

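The number of members lay between 109 and 134 under all alternatives, and the mat against pat nrpd1+/- counts at 21, 22 and 23 nt and the nrpd1-/- against pat nrpd1+/- counts at 22 and 23 nt kept their direction and stayed within 1.5 times in each. The causes of the following changes were not tested. At 24 nt, members higher in nrpd1-/- than in mat nrpd1+/- (66) numbered 100 without a filter, 36 with quality-filtered reads, 43 with genic reads and no scaling factors (chosen after seeing the data) and 15 (against 20 lower) with miRNA reads as library sizes, and 58 to 105 with 1 library left out. Members lower in nrpd1-/- than in pat nrpd1+/- at 24 nt (57) numbered 103 with RLE factors, 121 with DESeq2, 121 without a filter, 119 with all reads, 121 with miRNA reads and 121 with genic reads as library sizes, and 11 to 119 with 1 library left out. At 22 nt, members higher in nrpd1-/- than in mat nrpd1+/- (14) numbered 7 with RLE factors, 42 without a filter and 4 to 39 with 1 library left out. At 23 nt, members lower in nrpd1-/- than in mat nrpd1+/- (13, with 5 higher) numbered 27 with RLE factors, 21 with DESeq2, 20 without a filter (30 higher), 0 with all reads as library sizes (31 higher) and 10 to 21 with 1 library left out, where those higher outnumbered them without mat replicate 1 (14 lower), mat replicate 2 (14 lower) or nrpd1-/- replicate 3 (15 lower).

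Replicate numbers were not taken to pair the samples. Deviations from the group mean of same-numbered libraries correlated at -0.28 to 0.30. With so few libraries per group, deviations within a group depend on each other, so this cannot decide whether same-numbered libraries were paired. With the replicate number as a block, the 24-nt nrpd1-/- against pat nrpd1+/- count was 117, the 22-nt nrpd1-/- against mat nrpd1+/- count was 29, and the 23-nt nrpd1-/- against mat nrpd1+/- count was 15 lower with 22 higher. Few reads limit the mat nrpd1+/- values, where 29 members had fewer than 10 24-nt reads in all 3 libraries together, and those of nrpd1-/- replicate 3, where 26 members had none.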
